A study of Homo sapiens with 4 samples.

Results

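The tubulin isotype genes of SY5Y neuroblastoma cells were examined in 4 RNA-seq libraries, 2 from cells given the vehicle DMSO and 2 from cells given SGSS05-NS. The 10 genes were listed by name: the alpha-tubulin genes TUBA1A, TUBA1B and TUBA1C, the beta-tubulin genes TUBB, TUBB2A, TUBB2B, TUBB3, TUBB4B and TUBB6, and the gamma-tubulin gene TUBG1. They are 10 of the 57820 gene rows in each library. All 10 had enough counts to be among the 16468 genes tested, so no member was lost to the filter on low counts.

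SY5Y is an established neuroblastoma cell line, here labelled MYCN wild type in both groups. The labels call the treatment SGSS05-NS, whereas the title of the series and the study name SGSS05-NS3. The study describes SGSS05-NS3 as an inhibitor of the histone methyltransferase SETD8 and also reports weaker inhibition of other methyltransferases. Its discussion lists SGSS05-NS among related compounds, so whether both names mean the same compound cannot be told from the labels. The name in the labels is used here. Both groups were harvested 12 h after treatment, and the protocol in the labels names a dose of 3 μM, as do the figure legends of the study for these cells, whereas its methods text gives a lower one. The methods of the study call the 2 libraries of a group independent biological replicates, which the labels do not detail, and all come from 1 cell line.

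Alpha- and beta-tubulin form the heterodimer from which microtubules are assembled, and gamma-tubulin sits in the ring complex that starts new microtubules. Vertebrates carry several alpha and beta genes whose products differ mainly in their acidic C-terminal tails, the part of the protein that faces outward from the microtubule and is modified by enzymes. Neurons and cells of the neuronal lineage use TUBA1A, TUBB2A, TUBB2B and TUBB3 heavily. TUBB and TUBB4B are used in most cell types, and TUBB6 is a beta isotype with a more restricted use. Cells also adjust tubulin mRNA to the pool of free tubulin: when free dimers are plentiful, TTC5 recognises the first residues of a new tubulin chain at the ribosome, and SCAPER and CNOT11 link it to the enzymes that shorten and remove the mRNA.

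The starts of the coding sequences are shown because they encode the first residues of the chain, which this control reads in alpha- and beta-tubulin. They also show how nearly the isotypes match as nucleotide sequence. Each line gives the first 36 coding bases, 5′ to 3′ on the strand of the gene, from GENCODE release 44 transcripts on GRCh37. The first 4 codons are in capitals, which mark position only, and whether this control reads TUBG1 was not examined.
TUBA1A: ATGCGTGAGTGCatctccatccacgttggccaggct
TUBA1B: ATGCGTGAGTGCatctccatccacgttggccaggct
TUBA1C: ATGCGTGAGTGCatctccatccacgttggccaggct
TUBB: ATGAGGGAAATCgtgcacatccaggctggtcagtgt
TUBB2A: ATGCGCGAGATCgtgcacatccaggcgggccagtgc
TUBB2B: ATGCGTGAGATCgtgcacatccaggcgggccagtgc
TUBB6: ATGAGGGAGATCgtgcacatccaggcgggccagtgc
TUBG1: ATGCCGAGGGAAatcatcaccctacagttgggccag
The 3 alpha genes had no difference over these 36 bases, and TUBB2A and TUBB2B had 1.

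The ends of the coding sequences, which encode the C-terminal tails, are shown for beta isotypes because their products differ mainly in these tails. Each line gives the last 60 coding bases, 5′ to 3′ on the strand of the gene, with the stop codon in capitals.
TUBB: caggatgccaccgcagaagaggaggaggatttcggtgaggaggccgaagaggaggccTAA
TUBB2A: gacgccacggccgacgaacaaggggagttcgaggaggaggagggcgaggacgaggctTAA
TUBB2B: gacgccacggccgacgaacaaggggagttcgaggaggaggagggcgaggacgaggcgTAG
TUBB6: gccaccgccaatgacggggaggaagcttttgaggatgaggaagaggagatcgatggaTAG
Position by position from the stop codon, TUBB2A and TUBB2B had 2 differences over these 60 bases. They lie in the stop codon and in the codon before it and leave the encoded residues the same, so these tails do not tell TUBB2A from TUBB2B. Over the whole coding sequence the 3 pairs of alpha genes were 95.9 to 97.2% identical, the 15 pairs of beta genes 80.9 to 98.1%, with TUBB2A and TUBB2B at the top, and the 18 pairs of an alpha with a beta gene 52.7 to 55.2%. TUBG1 shared 49.5 to 54.2% with the other 9 genes.

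This likeness bears on every value that follows, because the deposited counts leave out fragments that map to several places, which made up 14.3 to 15.4% of all fragments in the 4 libraries. Of the windows with the length of 1 read along the TUBB2A transcript, 51.5% had an exact copy elsewhere in the genome or in another transcript, nearly all of them in TUBB2B. For TUBB2B the share was 45.2%, with copies in TUBB2A and the pseudogene TUBB2BP1. Windows of 250 bases, closer to a read pair, left 37.6% of TUBB2A and 30.7% of TUBB2B with a copy.

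The alpha genes were less affected. At the length of 1 read, 27.7% of TUBA1B windows had a copy, in TUBA1C, TUBA1A or TUBAP2, against 14.1% for TUBA1A and 9.41% for TUBA1C. At 250 bases the shares were 5.59% for TUBA1B, 0 for TUBA1A and 2.99% for TUBA1C. TUBG1 had 10.2% of its read-length windows in common with its paralogue TUBG2, TUBB3 had 3.86%, TUBB 3.68%, all in the pseudogene TUBBP1, TUBB4B 1.32%, and TUBB6 none. The counts of TUBB2A and TUBB2B are therefore too low by an unknown amount and their split is uncertain, while those of TUBB, TUBB4B and TUBB6 rest on almost wholly unique sequence.

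TUBB3, the neuronal class of beta-tubulin, carried a different limit. In GENCODE release 44, 92.8% of its exon bases lie under a second gene model on the same strand, ENSG00000198211, which also has a row in the deposited counts, with 0 in every library. Fragments that lie over 2 models are ambiguous and enter no gene count. How far the models overlap in the older release used for counting was not examined, so the level of TUBB3 beside the other isotypes is uncertain.

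In the whole series, gene counts on the reverse strand totalled between 21463105 and 25350204 per library. Fragments outside annotated exons made up 12.3 to 12.4% with DMSO and 15.3 to 16.1% with SGSS05-NS. The noradrenergic neuroblastoma markers (PHOX2A, HAND2, GATA3, ISL1, DBH, CHGA) were all detected and summed to 2405 and 2565 CPM with DMSO and to 1559 and 1383 CPM with SGSS05-NS. Of the 6, 4 were called lower at an adjusted p-value under 0.001 in edgeR's quasi-likelihood test, beside 8.14% of all genes tested. Mesenchymal markers summed to 74.9 and 80.2 CPM with DMSO and 55.2 and 47.8 CPM with SGSS05-NS. Nearly all of this sum was PDGFRB, at 71.0 and 75.8 CPM with DMSO and 52.4 and 44.2 CPM with SGSS05-NS. PDGFRB was called lower too, at a log2 fold change of -0.60, the only 1 of the 4 mesenchymal markers tested. PRRX1 and DCN were at 0 in every library, LUM and COL1A2 were low, and COL1A1 had a mean of 0.889 CPM with DMSO and 1.18 CPM with SGSS05-NS. The leukocyte and endothelial markers that had a row summed to at most 0.0901 CPM in any library. The part of these shifts in the tubulin results was not tested, and in bulk RNA fewer cells of a type and less RNA per cell cannot be told apart.

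The comparison of SGSS05-NS with DMSO asked which of the tubulin genes changed in cells given the compound. TUBB6 rose, TUBA1C and TUBB fell, and the other 7 genes did not pass an adjusted p-value of 0.001 in edgeR's quasi-likelihood test. The called shares were 1 of 10 higher and 2 of 10 lower, beside 6.37% higher and 8.14% lower among all genes tested, and 14.5% in either direction. With 10 genes, these shares are too coarse to set the members apart from all genes. At an adjusted p-value of 0.05, 2 members were higher and 5 lower, beside 22.6% and 23.7% of all genes. The median log2 fold change was -0.20 over the 10 members and 0.01 over all genes tested.

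TUBA1C is an alpha isotype that many dividing cells use (ENSG00000167553.10, chr12:49582519-49668383 of GRCh37, plus strand). Its counts were 426 and 441 with DMSO and 85 and 146 with SGSS05-NS, or 16.98 and 18.88 CPM against 3.83 and 6.21 CPM after TMM normalization. Both treated libraries lay far below both controls, with a mean of 5.02 ± 1.68 CPM against 17.9 ± 1.34 CPM (SD, n = 2 each). The log2 fold change was -1.83 ± 0.19 (SE), with a 95% interval from -2.25 to -1.41 and an adjusted p-value of 1.83e-05 in edgeR's quasi-likelihood test, the smallest p-value of the 10 members. It was called lower in every alternative fit tried.

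TUBA1C had the fewest counts of the 10 genes in the SGSS05-NS libraries. The annotated span of TUBA1C is 85.9 kb, the longest of the 10, beside 36.7 kb for TUBB6, 17.4 kb for TUBB3 and 2.42 to 8.41 kb for the others. Its start overlaps that of TUBA1A on the opposite strand, and the column for that strand held 4051 and 3545 fragments at TUBA1C with DMSO and 2108 and 2964 with SGSS05-NS, which the stranded counting kept out of the TUBA1C value. The older gene models behind the deposited counts were not used here, so further overlaps with TUBA1C in them were not examined. The level of TUBA1C beside the other isotypes is therefore uncertain, like that of TUBB3.

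Of all 16467 other genes tested, the 3 whose centred log2 CPM over the 4 libraries lay nearest to TUBA1C were BTBD9, GRID1 and SCFD2, with root mean square differences of 0.044, 0.045 and 0.052. Their log2 fold changes were -1.85, -1.80 and -1.77. Their annotated spans were 471.7, 767.2 and 493.1 kb, several times that of TUBA1C. Such a likeness over 4 libraries of 2 groups is a description only.

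TUBA1A and TUBA1B were the main alpha-tubulin mRNAs. TUBA1A (ENSG00000167552.9, chr12:49578469-49582863, minus strand), the isotype of developing neurons, had 52397 and 46798 counts with DMSO and 27470 and 36728 with SGSS05-NS. In CPM these were 2088 and 2003 against 1238 and 1562. The groups did not overlap, the mean was 1400 ± 229 CPM against 2046 ± 60.3 CPM (SD, n = 2 each), and the 2 treated libraries stood further apart than the 2 controls.

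TUBA1B (ENSG00000123416.11, chr12:49521565-49525180, minus strand), the ubiquitous alpha isotype, had 57715 and 47614 counts with DMSO and 29552 and 37105 with SGSS05-NS. In CPM these were 2300 and 2038 against 1332 and 1578, so both treated libraries again lay below both controls. By mean CPM with DMSO, TUBA1B ranked 16 and TUBA1A 21 among all genes tested.

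The log2 fold changes of the pair were close to each other, -0.55 ± 0.12 (SE) for TUBA1A and -0.58 ± 0.11 for TUBA1B, but neither passed the threshold, with adjusted p-values of 0.00258 and 0.00148 in edgeR's quasi-likelihood test. The 95% intervals ran from -0.80 to -0.29 and from -0.82 to -0.33. Both passed it with edgeR's likelihood ratio test, at adjusted p-values of 0.000126 and 2.73e-05, with DESeq2, at 6.44e-05 and 9.94e-06, and without the filter on low counts. Both also passed when DMSO replicate 2, SGSS05-NS replicate 1 or SGSS05-NS replicate 2 was left out, with log2 fold changes of -0.60, -0.40 and -0.72 for TUBA1A and -0.68, -0.47 and -0.70 for TUBA1B, and neither passed without DMSO replicate 1. TUBA1B also passed with limma voom and with counts taken without regard to strand.

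The 3 alpha genes together summed to 4406 and 4060 CPM with DMSO and 2573 and 3145 CPM with SGSS05-NS, a ratio of means of 0.676. Nearly all of this sum came from TUBA1A and TUBA1B, whose shares of the summed CPM per kb of transcript lay between 46.8 and 49.0% for TUBA1A and between 50.9 and 53.0% for TUBA1B in all 4 libraries. The share of TUBA1C was 0.225 and 0.272% with DMSO and 0.0870 and 0.115% with SGSS05-NS, with the limit on the TUBA1C count given above.

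TUBB (ENSG00000196230.8, chr6:30685212-30693315, plus strand), the beta isotype of most cell types, had 10920 and 10159 counts with DMSO and 6315 and 7427 with SGSS05-NS. The DMSO libraries were almost equal at 435.2 and 434.8 CPM, and the SGSS05-NS libraries were lower at 284.5 and 315.8 CPM. The mean was 300.2 ± 22.1 CPM against 435.0 ± 0.274 CPM (SD, n = 2 each). Its log2 fold change was -0.54 ± 0.10 (SE), with a 95% interval from -0.74 to -0.33 and an adjusted p-value of 0.000804 in edgeR's quasi-likelihood test. TUBB stood just inside the threshold: the adjusted p-value was 0.00107 with scaling by library size alone and 0.00104 with a minimum of 10 counts in every library, both past it.

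TUBB6 (ENSG00000176014.8, chr18:12307668-12344319, plus strand) was the member that rose. Its counts were 525 and 490 with DMSO and 832 and 774 with SGSS05-NS, or 20.9 and 21.0 CPM against 37.5 and 32.9 CPM. Both treated libraries lay above both controls, with a mean of 35.2 ± 3.24 CPM against 20.9 ± 0.0349 CPM (SD, n = 2 each). The log2 fold change was 0.75 ± 0.11 (SE), with a 95% interval from 0.50 to 0.99 and an adjusted p-value of 0.000254 in edgeR's quasi-likelihood test, and it was called higher in every alternative fit tried. The column of the opposite strand held 911, 918, 788 and 827 fragments at TUBB6, in the same order of libraries, and these did not enter the value.

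TUBB4B (ENSG00000188229.5, chr9:140135739-140138159, plus strand), a beta isotype of most cell types that is also prominent in cilia, had 358.1 and 356.4 CPM with DMSO and 292.7 and 307.1 CPM with SGSS05-NS. The groups did not overlap, but the log2 fold change of -0.25 ± 0.09 (SE) did not pass the threshold, with an adjusted p-value of 0.0389 in edgeR's quasi-likelihood test. TUBG1 (ENSG00000131462.3, chr17:40761659-40767256, plus strand), which serves microtubule nucleation and not the microtubule wall, had 58.9 and 57.0 CPM with DMSO and 52.2 and 53.1 CPM with SGSS05-NS. Its groups did not overlap either, and its log2 fold change was -0.14 with a 95% interval from -0.34 to 0.06.

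The neuronal beta isotypes did not pass the threshold in either direction. TUBB2B (ENSG00000137285.9, chr6:3223558-3231964, minus strand) had 383.0 and 366.7 CPM with DMSO and 345.9 and 392.0 CPM with SGSS05-NS. Its groups overlapped, the only such case among the 10, and its log2 fold change of -0.02 had a 95% interval from -0.24 to 0.19. The sign turned with scaling by library size alone (0.01) and without SGSS05-NS replicate 1 (0.06), so no direction can be given for TUBB2B.

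TUBB2A (ENSG00000137267.5, chr6:3153731-3157778, minus strand) had 32.0 and 30.3 CPM with DMSO and 37.2 and 39.1 CPM with SGSS05-NS. Both treated libraries were above both controls, with a log2 fold change of 0.29 ± 0.10 (SE) and an adjusted p-value of 0.0343 in edgeR's quasi-likelihood test, which did not pass the threshold. TUBB3 (ENSG00000258947.2, chr16:89987800-90005169, plus strand) had 181 and 179 counts with DMSO and 189 and 203 with SGSS05-NS, or 7.21 and 7.66 CPM against 8.52 and 8.63 CPM. Its groups did not overlap, and its log2 fold change of 0.21 had a 95% interval from -0.13 to 0.54.

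Counting the groups without regard to the test, both treated libraries lay above both controls for 3 members and below both for 6, and the groups overlapped for 1. Among all genes tested, 37.8% were above and 36.9% below in the same sense, so non-overlap of 2 against 2 libraries is common in these data.

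**Figure D1:**
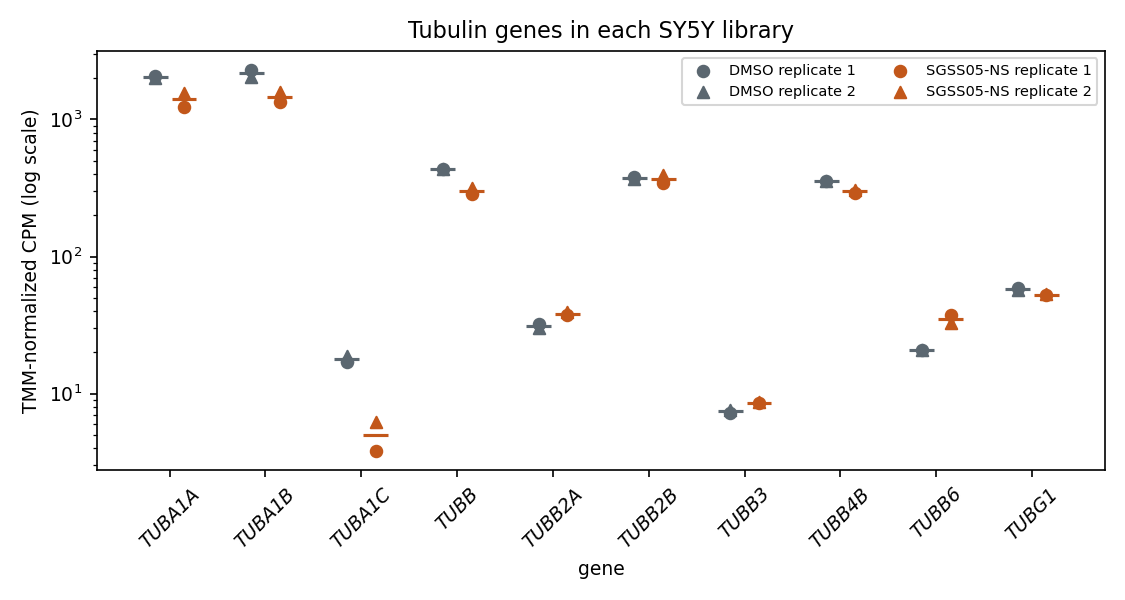
TMM-normalized CPM on a log axis (y) of the 10 tubulin genes (x) in each library, with grey symbols for DMSO, orange for SGSS05-NS, circles for replicate 1, triangles for replicate 2 and a bar at the mean of each group. TUBA1C falls from a mean of 17.9 to 5.02 CPM and TUBB6 rises from 20.9 to 35.2 CPM, while the TUBB2B symbols of both groups overlap.

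**Figure D2:**
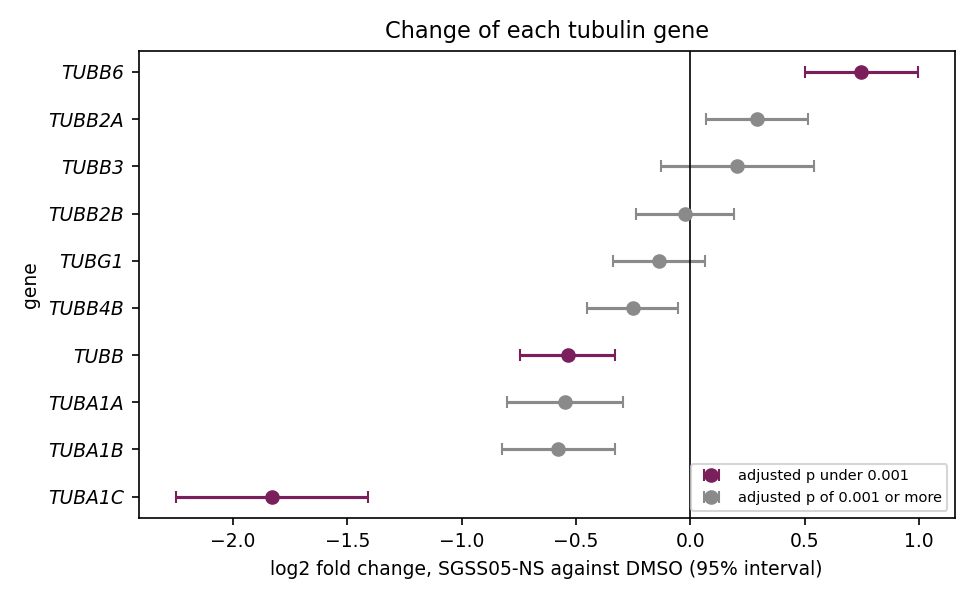
Log2 fold change of SGSS05-NS against DMSO (x axis) for each tubulin gene (y axis), with its 95% interval as a bar; purple marks an adjusted p-value under 0.001. TUBB6 is highest at 0.75, TUBA1C lowest at -1.83, and TUBA1A, TUBA1B and TUBB lie close together between -0.58 and -0.54.

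Mean CPM per kb of transcript takes account of length but not of copied sequence, so the places of TUBB2A and TUBB2B are uncertain. On this scale the order with DMSO was TUBA1B (1333), TUBA1A (1224), TUBB4B (228.6), TUBB2B (195.0), TUBB (173.0), TUBG1 (36.03), TUBB2A (19.3), TUBB6 (11.1), TUBA1C (6.35) and TUBB3 (4.36). With SGSS05-NS it was TUBA1B (894.0), TUBA1A (837.1), TUBB2B (192.0), TUBB4B (191.9), TUBB (119.3), TUBG1 (32.7), TUBB2A (23.6), TUBB6 (18.7), TUBB3 (5.03) and TUBA1C (1.78). With DMSO no neighbours in this order overlapped between libraries, although TUBA1A and TUBA1B came within a few units. Per window without a copy, however, TUBB2B stood above TUBB4B in both DMSO libraries. In the SGSS05-NS libraries the values of TUBB2B and TUBB4B, like those of TUBA1B and TUBA1A, overlapped between neighbours. TUBA1C and TUBB3 exchanged the last places, with the limits on the counts of both genes given above.

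The 6 beta isotypes summed to 1237 and 1217 CPM with DMSO and 1006 and 1096 CPM with SGSS05-NS, a ratio of means of 0.857. Of their shares of the summed CPM per kb, given here as a description, those of TUBB and TUBB4B were lower and those of the other 4 higher in both treated libraries than in both controls. TUBB made up 27.2 and 27.6% with DMSO and 21.4 and 21.9% with SGSS05-NS. TUBB6 made up 1.75 and 1.78% with DMSO and 3.78 and 3.06% with SGSS05-NS.

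TUBB2B made up 31.3 and 30.5% with DMSO and 34.1 and 35.6% with SGSS05-NS, and TUBB2A 3.11 and 3.00% against 4.36 and 4.22%. TUBB4B made up 35.99 and 36.42% with DMSO and 35.4 and 34.3% with SGSS05-NS, the largest single share with DMSO. When the level was taken per window without a copy in place of per kb, the largest share with DMSO passed to TUBB2B, at 43.2% against 28.6% for TUBB4B, so the order of these isotypes depends on how the copied sequence is treated.

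**Figure D3:**
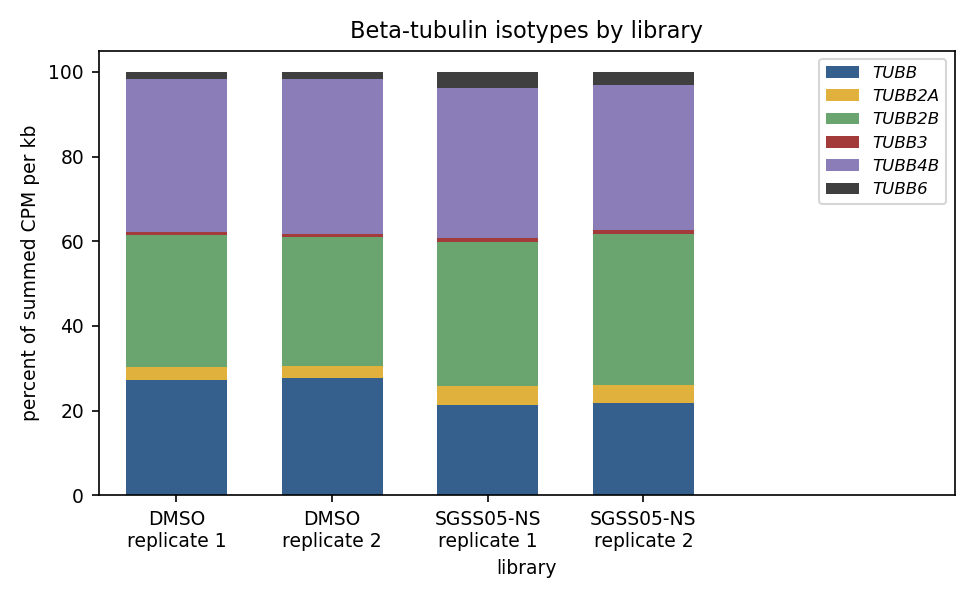
Share of each of the 6 beta isotypes in their summed CPM per kb (y axis, percent) in each of the 4 libraries (x axis). The TUBB segment is 27.2 and 27.6% with DMSO and 21.4 and 21.9% with SGSS05-NS, and the TUBB6 segment is 1.75 and 1.78% with DMSO and 3.78 and 3.06% with SGSS05-NS.

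The promoters were searched for motifs that control tubulin and stress genes, in RefSeq windows of GRCh38.p14 from 250 bases before to 50 bases after each start. The 10 genes had 15 such windows, and the letters were searched on both strands. CCAAT, the site of NF-Y, was in 10 of the 15 windows, of 8 genes, beside 34.6% of all 35116 windows. The paired heat shock element letters GAANNTTC were in 3 windows, of TUBA1C and TUBB, beside 6.77% of all windows. Of the TUBA1C windows 2 share 207 bases, so that a match can be counted in both. In addition, CACGTG, the E-box, was in 2 windows, of the same genes, beside 7.26%. The cell cycle homology letters TTTGAA were in 4 windows, of TUBA1C and TUBB4B, beside 15.2%, and TTCGAA in 1 window, of TUBB3, beside 1.45%. A match of letters is a description and says nothing of whether a factor binds there.

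Genes that act on tubulin were listed in 6 groups of 107 genes, of which 97 were tested, 6 were called higher and 11 lower, with a median log2 fold change of -0.08. The background over all genes tested was 6.37% higher and 8.14% lower, and the counts lie near it. Of the 12 other tubulin genes, 6 were tested and 1 was higher. This was TUBA4A, an alpha isotype, at 3.67 and 3.17 CPM with DMSO and 9.15 and 9.86 CPM with SGSS05-NS, a log2 fold change of 1.47 with an adjusted p-value of 4.84e-05 in edgeR's quasi-likelihood test. TUBG2, the paralogue of TUBG1, had a log2 fold change of 0.81 and TUBD1, delta-tubulin, of -0.57, and neither passed the threshold, with adjusted p-values of 0.00461 and 0.0191 in that test. The median over the 6 genes was 0.31.

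The 22 genes that fold tubulin comprise the chaperonin CCT, prefoldin and the tubulin cofactors. Of the 21 tested, 2 were higher and 2 lower (9.52% each), beside 6.37% and 8.14% of all genes tested. Their median log2 fold change was 0.04. The chaperonin subunits CCT4 and TCP1 rose by 0.62 and 0.56 on the log2 scale, from 295.6 ± 11.8 to 454.7 ± 35.3 CPM and from 409.4 ± 11.2 to 601.9 ± 24.3 CPM (SD, n = 2 each). TCP1 was named after its value was seen. TBCD, a cofactor that assembles the dimer, fell from 160.2 ± 9.35 to 95.6 ± 4.06 CPM, a log2 fold change of -0.74, and the prefoldin subunit PFDN6 fell from 34.7 ± 2.01 to 20.4 ± 3.00 CPM, a log2 fold change of -0.77. Adjusted p-values of these 4 genes lay between 7.65e-05 and 0.00052 in edgeR's quasi-likelihood test.

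None of the 3 genes of tubulin mRNA autoregulation passed the threshold in that edgeR test. TTC5 had 40.5 and 39.3 CPM with DMSO and 28.25 and 27.04 CPM with SGSS05-NS, a log2 fold change of -0.53 with an adjusted p-value of 0.00134 in edgeR's quasi-likelihood test. SCAPER had a log2 fold change of -0.75 with an adjusted p-value of 0.00344, and CNOT11 of 0.03 with 0.842, by the same edgeR test. At an unadjusted p-value under 0.05, 2 of the 3 were lower and none higher, beside 27.0% of all genes lower and 26.5% higher. Both edgeR's likelihood ratio test and DESeq2 called 2 lower at the threshold of 0.001. Of all genes tested, they called 2267 and 1598 lower, in place of 1341. The activity of this control was not measured.

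Of the 21 tested enzymes that modify tubulin, TTLL3, a glycylase, rose from 2.99 ± 0.793 to 8.94 ± 2.39 CPM (SD, n = 2 each), a log2 fold change of 1.59, and no other passed the threshold. This made 1 higher and none lower in the list, beside 6.37% and 8.14% of all genes tested. TTLL1 and TTLL5, both of the polyglutamylase family, had log2 fold changes of -0.82 and -0.56 with adjusted p-values of 0.00157 and 0.00345 in edgeR's quasi-likelihood test. The 12 tested genes of the gamma-tubulin ring complex, which holds TUBG1, had a median log2 fold change of -0.21. Of these genes none were higher, beside 6.37% of all genes tested, and 2 were lower, beside 8.14%. These were NME7, a kinase of the complex, which fell from 39.0 ± 1.35 to 18.1 ± 1.82 CPM, and CDK5RAP2, which activates the complex at centrosomes, which fell from 132.3 ± 9.41 to 90.4 ± 5.13 CPM. MZT1, a small subunit, had a log2 fold change of -0.44 and did not pass. With edgeR's likelihood ratio test and with DESeq2, 4 genes of this list were called lower. Among all genes tested, those tests called 2267 and 1598 lower, in place of 1341.

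Among the 34 proteins that bind or regulate microtubules, 2 were higher and 7 lower, beside 6.37% and 8.14% of all genes, with a median log2 fold change of -0.20. The 7 fell to 4 with library size only or with at least 10 counts in every library. They numbered 11 with edgeR's likelihood ratio test and with DESeq2, and 13 without the filter on low counts. All genes called lower, 1341 in the main fit, moved as well, to 997, 1235, 2267, 1598 and 2570 in the same order of settings. STMN4, a neuronal stathmin that sequesters tubulin dimers, had 17.1 and 13.8 CPM with DMSO and 57.1 and 81.4 CPM with SGSS05-NS, a log2 fold change of 2.16 with an adjusted p-value of 1.47e-06 in edgeR's quasi-likelihood test. MAP1A, a microtubule-associated protein of neurons that was named after its value was seen, had 81.2 and 81.0 CPM with DMSO and 247.5 and 154.4 CPM with SGSS05-NS, a log2 fold change of 1.31. MAP7, which recruits kinesin, fell from 22.4 ± 0.197 to 8.78 ± 0.692 CPM, and CLASP1, which stabilises plus ends, from 190.4 ± 19.4 to 92.3 ± 5.62 CPM (SD, n = 2 each), log2 fold changes of -1.35 and -1.04. The other genes called lower, also named after their values were seen, were DCLK1, a doublecortin-like kinase (-1.37), MAPT, which encodes tau (-0.74), the neuronal stathmin STMN2 (-0.68), the severing enzyme SPAST (-0.52) and DPYSL2, a tubulin-binding protein of growing axons (-0.52), all as log2 fold changes.

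**Figure D4:**
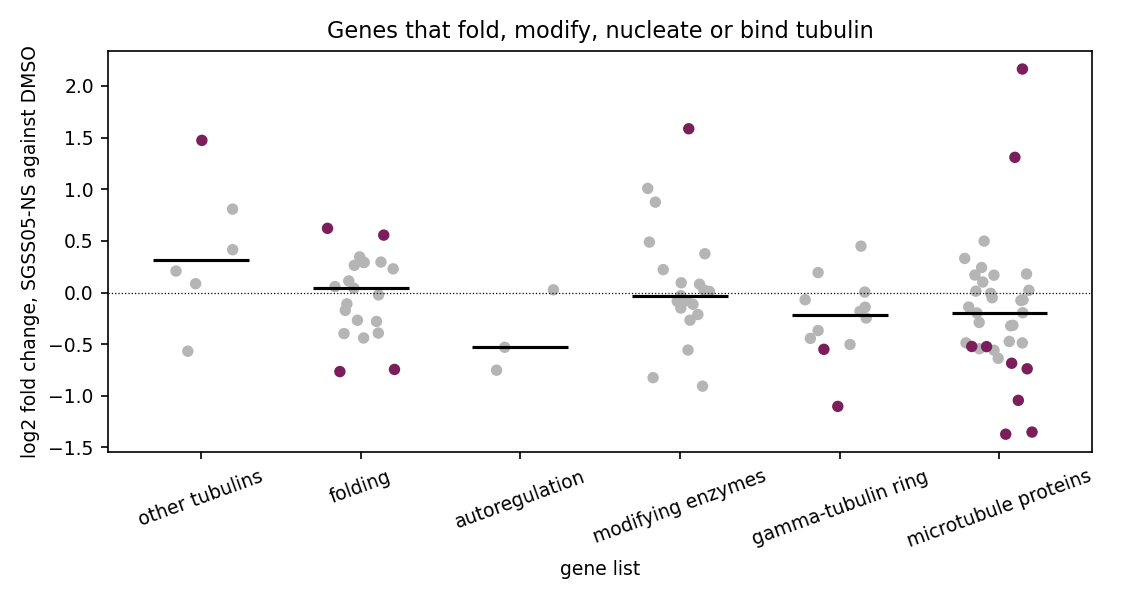
Log2 fold change of SGSS05-NS against DMSO (y axis) of each tested gene in the 6 lists of genes that act on tubulin (x axis), with purple points for an adjusted p-value under 0.001, grey points for the rest and a black bar at the median of each list. STMN4 is the highest point at 2.16, and the medians lie between -0.53 for autoregulation and 0.31 for the other tubulins.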

How the data were processed

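Total RNA of SY5Y cells was sequenced in 4 libraries, 2 with DMSO and 2 with SGSS05-NS, grouped by the sample labels. The labels name a TruSeq RNA kit, whereas the methods of the study name a stranded total RNA kit. According to the submitters' processing notes, the authors used Trimmomatic 0.30, STAR 2.4.2a on hg19 and edgeR 3.10.5. They deposited the gene count table of STAR for each library, unnormalized, with a column without regard to strand and a column for each strand, and replicates were not pooled. Summary rows for fragments that mapped to several places, lay outside exons or were ambiguous entered no library size and no test. The reverse-strand column was used, since the forward column held 4.64 to 5.05% of the stranded gene counts.

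Gene identifiers were matched to GENCODE release 44 on GRCh37, which is newer than the models used for counting, and 55538 of 57820 matched. The transcript length is that of 1 canonical transcript per gene. Windows of 1 read length and of 250 bases were compared with the genome and all transcripts on both strands for exact copies.

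Differences were tested with edgeR 4.0.16 in R 4.3.3. Genes were kept by filterByExpr and libraries scaled by TMM, and SGSS05-NS was compared with DMSO by the quasi-likelihood test with no further term. P-values were adjusted by Benjamini-Hochberg over 16468 genes, and the threshold was 0.001. The standard error was the size of the log2 fold change divided by the square root of F. Replicates differed by more than counting noise: chi-square per degree of freedom was 8.76 with DMSO and 11.8 with SGSS05-NS. The edgeR step was tested on simulated counts.

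The members and gene lists were chosen with earlier results of these data known. The genes named were the 10 members, the 3 genes of each other list with the smallest p-values, and the 3 genes most like the member with the smallest p-value. Alternatives were the likelihood ratio test of edgeR, DESeq2 1.42.0, voom of limma 3.58.1, the DESeq2 size factors within edgeR, library size as the sole scaling, testing every gene with a count, a minimum of 10 counts per library, a replicate block, counts without regard to strand, a threshold of 0.05 and each library left out. Levels per window without a copy were added after the data were seen. Of the listed genes, TUBB8, TBCE and TUBGCP5 and the marker PECAM1 had no matched identifier and were not analysed here, and 7 other listed genes had too few counts. Another marker of the neuroblastoma list and the coding ends of some members are not reported here.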

Additional observations from a re-analysis of the deposited data

Results flagged for a closer look

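The column for the strand opposite to TUBB4B, which enters none of the values above, held 2 and 1 fragments with DMSO and 6 and 4 with SGSS05-NS, a mean of 0.22 CPM with SGSS05-NS. It stood out because both treated libraries were above both controls in data outside the main measurement. The counts are few, and the difference was not tested. Of the exon bases of TUBB4B, 7.93% are overlapped by exons of FAM166A on the opposite strand.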

How the results depend on the processing

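Of the log2 fold changes of the 10 members under the alternatives, 118 kept their direction and side of the threshold, 18 came to pass it, 2 no longer passed it, both of TUBB, and 2 turned sign, both of TUBB2B (0.0070 with library size only and 0.0575 without SGSS05-NS replicate 1), where the range without 1 library was -0.1155 to 0.0575. The cause was not tested. Members called lower, 2 as reported, numbered 4 with edgeR's likelihood ratio test, 4 with DESeq2, 1 with library size only, 4 with no filter on low counts, 1 with at least 10 counts in every library and 5 at a threshold of 0.05. Without 1 library they numbered 2 to 4. Members called higher numbered 2 at 0.05 and 1 without any 1 library.

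Genes of the other lists called higher, 6 as reported, numbered 10 with the likelihood ratio test and 17 at 0.05, and 5 to 8 without 1 library. Those called lower, 11 as reported, numbered 21 with the likelihood ratio test, 19 with DESeq2, 6 with library size only, 24 with no filter and 31 at 0.05, and 10 to 16 without 1 library. All genes called higher, 1049 as reported, numbered 2022 with the likelihood ratio test, 2034 with no filter and 3728 at 0.05, and 1037 to 1279 without 1 library. All genes called lower, 1341 as reported, numbered 2267, 2570 and 3903 under the same settings, and 1322 to 1649 without 1 library. A fit without 1 library leaves a condition with 1 library, which is assumed to vary like the other.

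The correlation of deviations of same-numbered libraries was 0.0526. With 2 libraries in a group the deviations mirror each other, so both pairs of libraries give this same value. It cannot show whether same-numbered libraries were handled together. With the replicate block, 1 member was higher and 2 lower, 10 and 19 genes of the other lists, and 1759 and 2007 of all genes.

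With levels per window without a copy, the DMSO shares of the beta class were 21.4% for TUBB, 4.89% for TUBB2A, 43.2% for TUBB2B and 28.6% for TUBB4B, in place of 27.4, 3.06, 30.9 and 36.2%. TUBA1C and TUBB3 had the fewest counts of the members, 85 to 441 and 179 to 203. The median of all genes moved from 0.01 to 0.04 on the log2 scale with library size only.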
